A study of Mus musculus with 12 samples.

Results

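Semaphorins, ephrins, Slits and netrins are ligands that steer growing axons, vessels and migrating cells, and plexins, neuropilins, Eph receptors, Robo receptors and Unc5b are their receptors. The genes described here are the protein-coding genes whose symbols start with Sema, Plxn, Epha, Ephb, Efna, Efnb, Slit or Robo, together with Nrp1, Nrp2, Ntn1, Ntn4 and Unc5b. They number 63 of the 55414 gene identifiers counted, 33 ligands and 30 receptors. Polyadenylated RNA came from the 3T3-L1 line, mouse fibroblast-like preadipocytes that become fat cells under hormones (mesenchymal stem cells, in the labels' terms). Cells carried FHL2-GFP (overexpressed FHL2, a LIM-domain cofactor, with green fluorescent protein) or the CTRL-GFP control construct, so GFP was common to all groups. Both lines were harvested after confluence, before induction (day 0), and after 2 days with 170 nM insulin, 1 µM dexamethasone and 0.5 mM isobutylmethylxanthine (day 2), in medium with 10% serum. This gives 4 groups of 3 libraries: control day 0, control day 2, FHL2 day 0 and FHL2 day 2. The labels do not give the promoter of the constructs, whether a line is 1 clone, or whether libraries of a group came from separate cultures, so p-values measure only the spread between libraries, which may be technical.

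Class 3 semaphorins are secreted and bind neuropilins, which signal through plexins, whereas semaphorins of classes 4 to 7 sit in the membrane and bind plexins directly. Plexins act on small GTPases and thereby on the cytoskeleton and on adhesion to the matrix. Ephrins are held in the membrane too, by a lipid anchor in class A and by a transmembrane segment in class B, so Eph receptors, which are tyrosine kinases, are engaged where cells touch. Slits bind Robo receptors, and netrins bind Dcc, neogenin and the Unc5 receptors. In fat tissue these families are known from work on vessels, nerves and macrophages, and some members, such as Slit2, are made by the adipocyte lineage itself.

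Levels are CPM, counts relative to the scaled size of the library, and differences are log2 fold changes with their standard error (SE) from edgeR's quasi-likelihood test. The text calls a gene when its Benjamini-Hochberg adjusted p, taken over the 14435 genes that were tested, is under 0.05. Of the 63 genes, 45 passed the filter on low counts and were tested, 18 did not pass, and 5 of those 18 (Epha1, Epha5, Robo4, Sema3e and Sema4f) had no count in any library. The libraries held 10047708 to 21872139 counts, and counting error is small for genes above a few CPM. Fewer genes were detected on day 2 (12689 to 16131) than on day 0 (17977 to 18811). Those with the fewest, called gene-poor below, were control day 2 replicate 3 and FHL2 day 2 replicates 1 and 2. In control day 2 replicate 3, 81 genes stood at 0 although both other libraries of the group had at least 50 counts, with Epha4 among them. The same held for 15 genes in FHL2 day 2 replicate 1 and 11 in replicate 2, and for none in the other 9 libraries. Fhl2 itself was not higher in the libraries labelled FHL2: it had 58.9, 61.0 and 63.6 CPM in control and 67.4, 58.8 and 62.0 CPM in FHL2 on day 0. On day 2 it had 13.9, 14.2 and 21.0 CPM in control and 18.7, 9.92 and 22.6 CPM in FHL2. The groups overlap on both days, and whether reads of the construct were assigned to this gene is unknown here, so directions between the lines follow the labels alone. Preadipocyte and fibroblast markers (10 genes) summed to 25589 to 30719 CPM per library in all groups. Neuronal markers summed to 7.28 to 23.6 CPM and endothelial ones to 0.779 to 6.03 CPM, with Cldn5 at 0 in every group. Adipoq, Plin1 and Cidec, markers of mature fat cells, were at 0 on day 0.

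Guidance genes were expressed by these cells at moderate levels, and receptors led. Per kilobase of exon, Plxnb2 (42.5 ± 3.64 CPM per kb, SD, n = 3), Ephb4 (40.2 ± 2.85) and Plxna1 (31.8 ± 2.47) stood highest in control cells on day 0, and the libraries of Plxnb2 and Ephb4 overlap. On day 2 the control order was Plxnd1 (69.0 ± 4.84), Ephb4 (67.9 ± 6.13) and Plxnb2 (62.8 ± 5.90), which do not differ beyond their spread, and Plxna1 followed at 22.1 ± 4.73. FHL2 cells on day 2 had Ephb4 first (75.5 ± 7.43 CPM per kb), clear of Plxnd1 (53.4 ± 8.85) and Plxnb2 (47.2 ± 6.11), which overlap each other. The most abundant ligands per kilobase on control day 0 were the ephrin genes Efna1 (17.2 ± 1.78) and Efnb2 (15 ± 1.02), below the Plxna1 level in every library. The Robo family was close to absent, with a summed level of 2.02 to 3.12 CPM per library in control cells on day 0 against 137 to 169 CPM for the Slits.

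**Figure D1:**
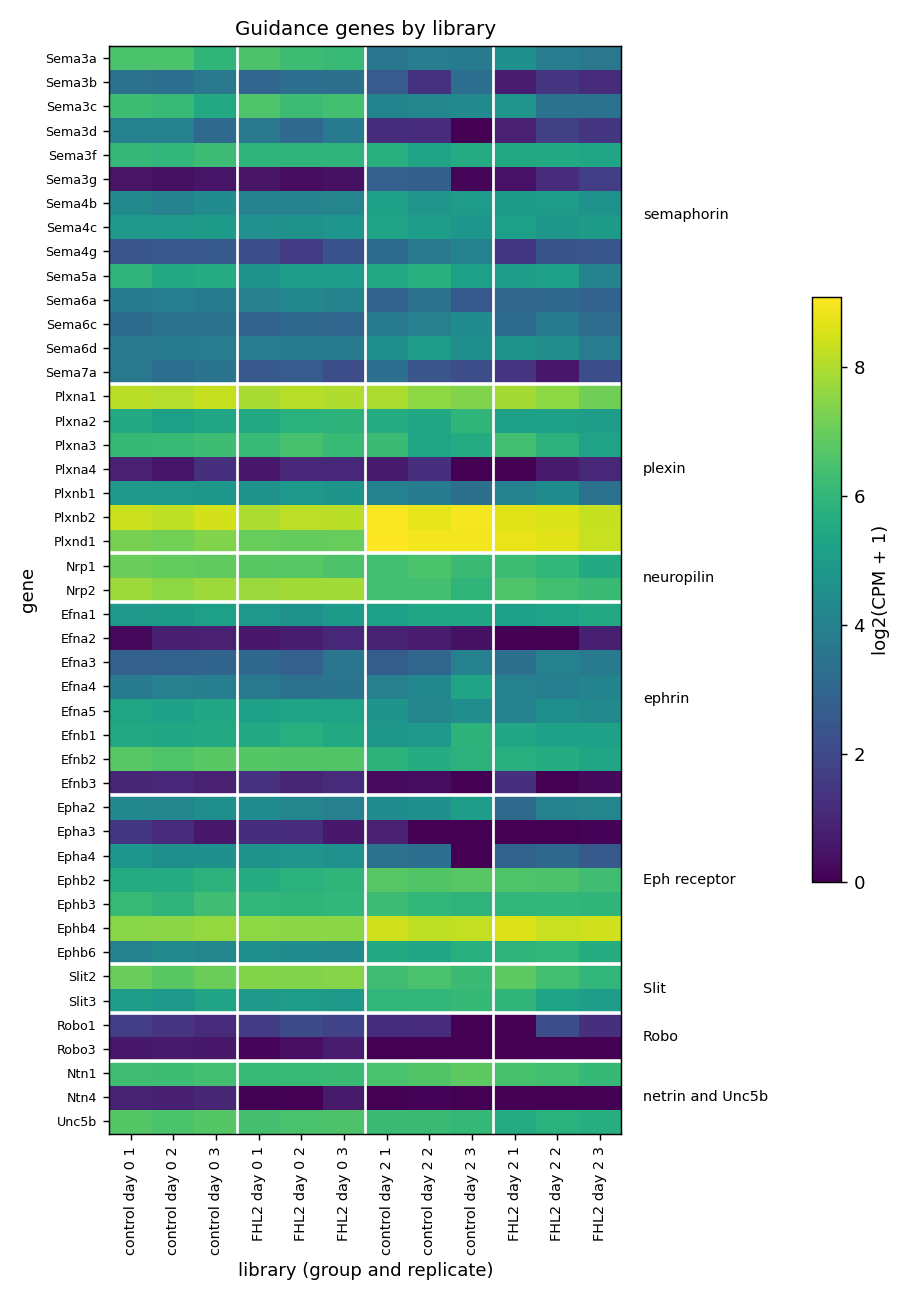
Level of each of the 45 tested guidance genes (rows, grouped by family) in each of the 12 libraries (columns, by group and replicate), as colour on a log2(CPM + 1) scale. Plxnb2, Plxnd1 and Ephb4 are the brightest rows on day 2, as counted, Sema3a, Sema3c, Sema3d and Nrp2 darken from day 0 to day 2, and the Robo rows stay dark.

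Many of these genes differed between the days, in both directions. There was no uninduced culture on day 2, so the hormones and the added time cannot be told apart. In control cells 29 of 45 were called between the days (64.4%), 13 higher and 16 lower on day 2, where 57.1% of all genes tested were called (26.3% higher and 30.8% lower). In FHL2 cells 27 were called (60.0%), 9 higher and 18 lower, against 56.0% of all genes (25.8% higher and 30.2% lower). Both shares are near those of all genes. The median log2 fold change of the 45 genes was -0.42 in control and -0.49 in FHL2, beside -0.14 and -0.11 over all genes. Of the rises, 8 were called in both lines (8 of 13 in control and 8 of 9 in FHL2), and of the falls 15 were (15 of 16 and 15 of 18). No gene was called in opposite directions, and 12 were called in neither line.

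The day comparison carries a dependence on base composition that touches these genes. Genes of low GC content were lower on day 2: over the fifth of all tested genes with the lowest GC content (27.5% to 43.8% in the longest transcript) the median change in control was -1.79, and over the highest class (55.2% to 78.3%) it was 0.73. The guidance genes are spread unevenly over these classes, with 5 in the lowest (Nrp1, Sema3a, Sema3c, Sema3d and Epha3) and 26 in the highest. Across the 45 genes, which are not independent replicates and come from the same libraries, Spearman's rank correlation between GC content and the change was 0.439 in control and 0.399 in FHL2, beside 0.603 and 0.582 over all genes. A second fit therefore added to each library a smooth offset that follows GC content (the GC offset), which moved the median change of all genes from -0.14 to 0.01 in control and from -0.11 to 0.01 in FHL2. With it, 5 guidance genes were higher and 18 lower in control, and 4 were higher and 18 lower in FHL2, beside 39.3% and 39.0% of all genes called. Over all genes, calls with the offset were more often higher (22.1% of genes in control and 21.2% in FHL2) than lower (17.3% and 17.8%). Values with the GC offset stand beside the changes it touches most.

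**Figure D2:**
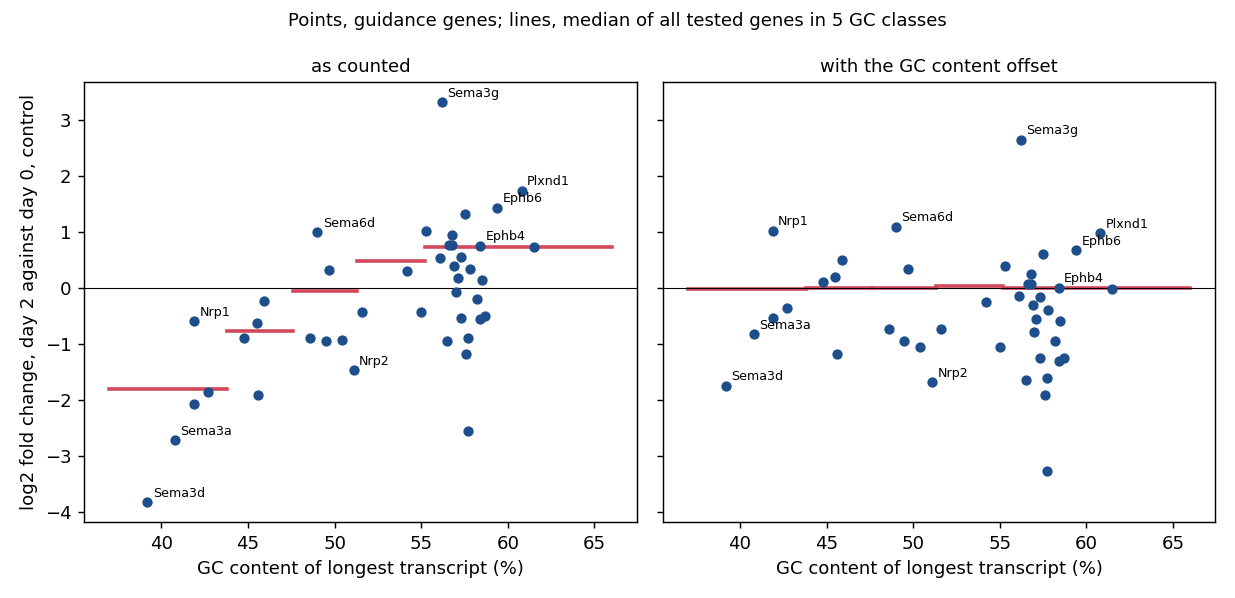
Log2 fold change from day 0 to day 2 in control cells against the GC content of the longest transcript (%), as counted (left) and with the GC offset (right), for 43 guidance genes (points, Robo3 and Ntn4 left out) and as the median of all tested genes in 5 GC classes (lines). The medians run from -1.79 to 0.73 as counted and lie near 0 with the offset, while Plxnd1, Ephb6 and Sema6d stay above 0 and Sema3a, Sema3d and Nrp2 stay below.

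Marker lists moved between the days as well. Adipocyte markers (8 genes) summed to 156 to 210 CPM per library on day 0 and 260 to 422 CPM on day 2, and pericyte and smooth muscle markers (6 genes) to 563 to 828 CPM on day 0 and 108 to 238 CPM on day 2, most of it Acta2. Their part in the changes below was not tested, and in bulk RNA fewer cells of a type cannot be told apart from less RNA per cell.

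The regions before the transcription start are shown for 3 members whose region held a short motif named below. They are Plxnd1, the largest called rise above 5 CPM in both lines, Sema3a, one of the largest falls, and Unc5b, the one gene called between the lines. Each is the 250 bases before the start in RefSeq (GRCm38.p6), 5′ to 3′ on the strand of the gene, with positions counted back from the start. Capitals mark AGAACA, one arm of the glucocorticoid response element, in Plxnd1, at positions -237 to -232, and the core motif of NFAT5 (TGGAAA) in the others, at -218 to -213 in Sema3a and -242 to -237 in Unc5b.
Plxnd1, chr6:115995006-115995255, minus strand: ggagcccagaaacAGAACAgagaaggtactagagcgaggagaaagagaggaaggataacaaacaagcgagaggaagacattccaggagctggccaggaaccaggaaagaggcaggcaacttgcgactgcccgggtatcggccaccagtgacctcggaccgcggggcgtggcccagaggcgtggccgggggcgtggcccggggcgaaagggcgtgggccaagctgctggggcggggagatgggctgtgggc
Sema3a, chr5:13396534-13396783, plus strand: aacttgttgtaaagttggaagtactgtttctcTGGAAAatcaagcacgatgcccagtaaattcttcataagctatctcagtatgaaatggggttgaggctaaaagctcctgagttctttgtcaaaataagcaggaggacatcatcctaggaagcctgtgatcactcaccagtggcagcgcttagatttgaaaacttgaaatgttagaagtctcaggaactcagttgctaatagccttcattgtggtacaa
Unc5b, chr10:60831582-60831831, minus strand: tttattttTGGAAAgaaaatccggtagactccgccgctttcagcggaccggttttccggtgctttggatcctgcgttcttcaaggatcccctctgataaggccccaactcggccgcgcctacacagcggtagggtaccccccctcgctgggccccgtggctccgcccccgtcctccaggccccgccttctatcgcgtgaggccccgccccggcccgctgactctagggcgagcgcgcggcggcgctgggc
The windows of Plxnd1 and Unc5b have a GC content of 64.8% and 66.8%, and that of Sema3a 40.8%, beside a median of 64.4% over the 71 windows of the 55 guidance genes in the table and 52.4% over all 32851 windows. On both strands, AGAACA was found in 7 of the 71 windows (9.86%), of 5 genes, and in 16.1% of all windows, and TGGAAA in 8 (11.3%) and in 18.6%. The cAMP response element TGACGTCA was in 1 window, of Epha2 (1.41%, beside 1.55% of all), and the C/EBP motif TTGCNNAA in 3 (4.23%, beside 9.56%). The full glucocorticoid response element, which holds that arm and its inverted copy, was in none of the 71 and in 0.00913% of all windows. The windows of Nrp2, Sema3c and Ephb4 were drawn as well, held none of these motifs and are not shown, so every window shown has a match by selection. These are matches of letters in a short window and say nothing about binding.

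Among the secreted class 3 semaphorins, 4 of 6 tested fell in control and 5 of 6 in FHL2. Sema3a, which signals through Nrp1 and A-type plexins, had 91.5, 90.5 and 61.0 CPM in control on day 0 and 11, 13.4 and 12.7 CPM on day 2. In FHL2 it had 92.5, 76.8 and 68.2 CPM on day 0 and 22.4, 13.2 and 11.3 CPM on day 2. Every day 2 library lay below every day 0 library, and Sema3a fell in control (log2 fold change -2.71, SE 0.25, edgeR adjusted p = 5.60e-07) and in FHL2 (-2.34, SE 0.24, adjusted p = 1.77e-06). Its transcript has a GC content of 40.8%, and with the GC offset the fall was smaller, -0.82 (adjusted p = 0.0132) and -0.67 (adjusted p = 0.0312).

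Sema3c, a ligand of neuropilins with A-type plexins and Plxnd1, had 76.6, 68.3 and 45.2 CPM in control on day 0 and 16.0, 17.5 and 19.4 CPM on day 2. In FHL2 it went from 95.5, 74.9 and 82.5 CPM to 25.8, 9.56 and 9.75 CPM. The days do not overlap in either line, and Sema3c fell in control (log2 fold change -1.85, SE 0.32, edgeR adjusted p = 0.000189) and in FHL2 (-2.49, SE 0.32, adjusted p = 1.55e-05). With the GC offset the change in control was -0.35 and no longer passed (adjusted p = 0.399), whereas that in FHL2 was -1.16 (adjusted p = 0.00757). Sema3d, another neuropilin ligand, was lower in level, with 15, 15 and 7.54 CPM in control on day 0 and 1.27, 1.25 and 0 CPM on day 2. The FHL2 libraries had 11.5, 7.57 and 12.1 CPM and then 0.763, 2.27 and 1.70 CPM. It fell in control (log2 fold change -3.82, SE 0.71, adjusted p = 0.000331) and in FHL2 (-2.71, SE 0.66, adjusted p = 0.00287), and with the GC offset the changes were -1.74 (adjusted p = 0.0344) and -0.78 (adjusted p = 0.301).

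Sema3f, which prefers Nrp2 and had the highest CPM of the semaphorins averaged over all 12 libraries (on day 0 Sema3a led in control and Sema3c in FHL2), had smaller changes. It had 66, 61.5 and 74.0 CPM in control on day 0 and 52.0, 38.6 and 47.1 CPM on day 2. Its FHL2 levels were 59.1, 59.3 and 58.5 CPM and then 45.4, 46.3 and 40.7 CPM. The days do not overlap, and Sema3f fell in control (log2 fold change -0.55, SE 0.13, edgeR adjusted p = 0.00283) and in FHL2 (-0.42, SE 0.13, adjusted p = 0.0152). Its transcript has a GC content of 58.4%, and with the GC offset the fall was larger, -1.29 and -1.13. Without FHL2 day 2 replicate 3 the fall in FHL2 did not pass (adjusted p = 0.0637). Sema3b fell in FHL2, from 8.33 ± 1.29 to 1.18 ± 0.539 CPM (n = 3), a change of -2.81 (SE 0.57, adjusted p = 0.000700). In control Sema3b went from 9.96 ± 1.33 to 5.23 ± 3.78 CPM, and its change of -0.94 did not pass (adjusted p = 0.137). It did without control day 2 replicate 3 (-1.52, adjusted p = 0.0193), without the 3 gene-poor day 2 libraries (-1.53, adjusted p = 0.00212), with limma-voom (adjusted p = 0.0170) and with the GC offset (-1.63, adjusted p = 0.0227). Sema3g was the exception in direction, called higher in control (0.387 ± 0.0556 to 3.92 ± 3.30 CPM, adjusted p = 0.0187), but control day 2 replicate 3 had 0.108 CPM where the other libraries of that group had 5.84 and 5.81. This call was lost with the GC offset (adjusted p = 0.0641) and in 5 of the fits that left out 1 control library (adjusted p of 0.0536 to 0.0705).

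Of the 8 membrane semaphorins of classes 4 to 7 that were tested, 4 rose and 1 fell in control and 2 rose and 1 fell in FHL2, and with the GC offset Sema6d was the riser that remained. Sema6d, a ligand of Plxna1, had 11.6, 12.6 and 13.2 CPM in control on day 0 and 22.3, 30.5 and 22 CPM on day 2. FHL2 cells had it at 13.4, 12 and 12.7 CPM and then 24.3, 21.7 and 13.2 CPM. Sema6d rose by 1.00 in control (SE 0.24, edgeR adjusted p = 0.00262), without overlap, and by 0.63 in FHL2 (SE 0.24, adjusted p = 0.0357), where FHL2 day 2 replicate 3 lies within the day 0 range. Both calls held with the GC offset (1.10, adjusted p = 0.00225, and 0.73, adjusted p = 0.0252). The call in FHL2 was lost in 8 of the 12 fits without 1 library, and without the 3 gene-poor day 2 libraries, which leaves FHL2 day 2 replicate 3 alone, the change was 0.07 (adjusted p = 0.806).

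Sema4b had 19.4, 15.4 and 19.9 CPM in control on day 0 and 36.1, 25.7 and 31.4 CPM on day 2. In FHL2 it had 15.4, 15.2 and 16.6 CPM and then 29.8, 30.7 and 24.1 CPM. Sema4b rose without overlap by 0.77 in control (SE 0.19, edgeR adjusted p = 0.00298) and by 0.84 in FHL2 (SE 0.19, adjusted p = 0.00164), and with the GC offset neither change passed (0.07, adjusted p = 0.781, and 0.17, adjusted p = 0.504). Sema4g, which like Sema4c binds Plxnb2, had 4.25, 4.53 and 4.78 CPM in control on day 0 and 7.95, 11.4 and 14.8 CPM on day 2. The FHL2 libraries had 3.59, 2.00 and 3.94 CPM and then 1.80, 4.18 and 4.42 CPM. Sema4g rose in control by 1.33 (SE 0.44, adjusted p = 0.0179) and had a change of 0.13 in FHL2 (SE 0.44, adjusted p = 0.826), but the test of that difference, the interaction of line and day, was not passed (-1.20, SE 0.62, adjusted p = 0.746). Under the GC offset the control change was 0.61 (adjusted p = 0.283), and without control day 0 replicate 1 or 2 the adjusted p was 0.0646 or 0.0578.

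Sema6c rose in control by 0.74 (adjusted p = 0.0358), which 7 fits without 1 library did not keep and which the GC offset brought to -0.02 (adjusted p = 0.967). Sema6a, a ligand of Plxna2 and Plxna4, was the faller of these classes, in control (-0.89, adjusted p = 0.0152) and in FHL2 (-1.23, adjusted p = 0.00197), and it was called with the GC offset too (-0.72, adjusted p = 0.0436, and -1.06, adjusted p = 0.00533). Its control call was lost without control day 0 replicate 2, day 2 replicate 1 or day 2 replicate 3 (adjusted p = 0.0555, 0.0571 and 0.0540). Sema4c, Sema5a and Sema7a were called in neither line, and with the GC offset Sema7a was lower in both (-1.61, adjusted p = 0.0344, and -1.87, adjusted p = 0.0196) and Sema4c in control (-0.54, adjusted p = 0.0228).

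**Figure D3:**
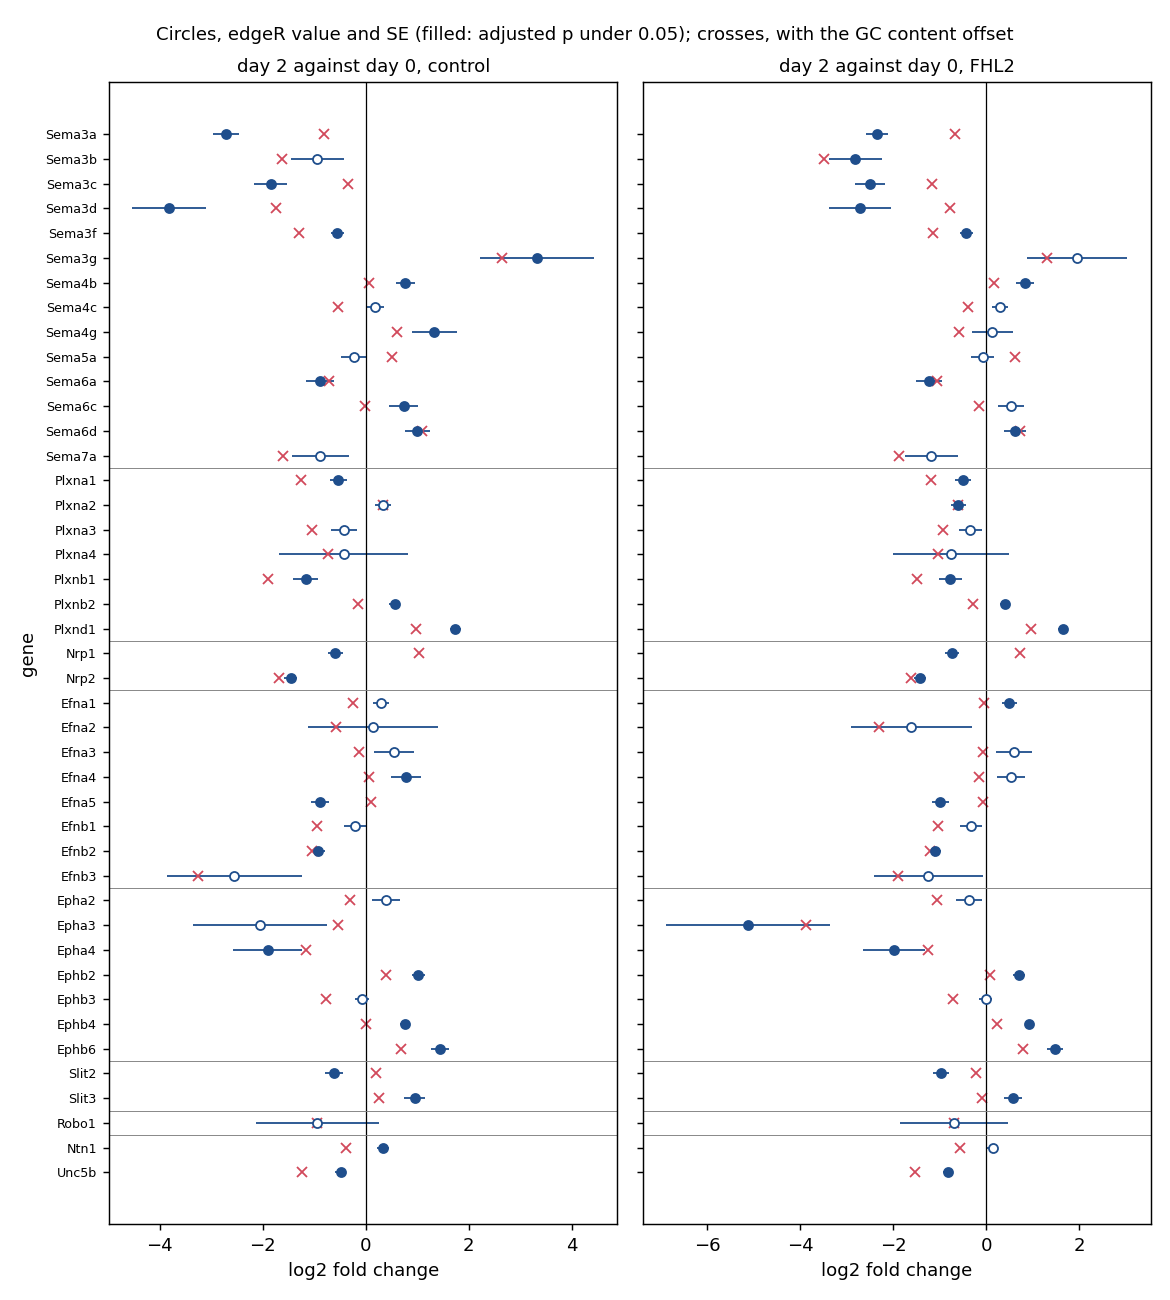
Log2 fold change from day 0 to day 2 with its SE (circles and bars) for 43 guidance genes, by family, in control (left) and FHL2 (right), filled where the adjusted p is under 0.05, with the value under the GC offset as a cross. Robo3 and Ntn4 are left out because a group had no or nearly no count. Plxnd1 and Ephb6 lie right of 0 and Nrp2, Efnb2 and Unc5b left of 0 under both fits in both lines, while Nrp1 changes side.

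Of the receptors of semaphorins, Plxnd1 had the largest rise. It had 149, 140 and 164 CPM in control on day 0 and 544, 483 and 484 CPM on day 2. Its FHL2 levels were 124, 123 and 126 CPM and then 443, 408 and 318 CPM. All day 2 libraries lay far above all day 0 libraries, and Plxnd1 rose by 1.74 in control (SE 0.11, edgeR adjusted p = 2.78e-08) and by 1.65 in FHL2 (SE 0.11, adjusted p = 4.95e-08). Its transcript is rich in GC (60.8%), and with the GC offset the rise was 0.98 (adjusted p = 1.20e-05) and 0.96 (adjusted p = 1.33e-05). Sema3e, the ligand that binds Plxnd1 without a neuropilin, had no count in any library.

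Plxnb2, the receptor of Sema4c and Sema4g and the plexin with the highest CPM averaged over all 12 libraries (Plxnd1 led on day 2), had 330, 299 and 356 CPM in control on day 0 and 523, 434 and 496 CPM on day 2. FHL2 cells had it at 247, 292 and 283 CPM and then 402, 380 and 311 CPM. Plxnb2 rose without overlap by 0.56 in control (SE 0.11, edgeR adjusted p = 0.000631) and by 0.41 in FHL2 (SE 0.11, adjusted p = 0.00610). With the GC offset the changes were -0.16 (adjusted p = 0.260) and -0.28 (adjusted p = 0.0511), so the direction of Plxnb2 depends on that correction. Plxnb1, a receptor of Sema4d, fell in both lines, from 27.9 ± 0.886 to 12.3 ± 2.92 CPM in control (-1.17, adjusted p = 0.00115) and from 25.9 ± 1.83 to 15.2 ± 5.20 CPM in FHL2 (-0.77, adjusted p = 0.0161). The fall in FHL2 was not called without FHL2 day 0 replicate 2 or day 2 replicate 3 (adjusted p = 0.0551 and 0.0752). Under the GC offset the changes of Plxnb1 were -1.90 and -1.48.

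Plxna1, the partner of neuropilins and of Sema6d, fell from 288 ± 22.3 to 200 ± 42.9 CPM in control (-0.53, edgeR adjusted p = 0.0153) and from 260 ± 16.5 to 186 ± 47.1 CPM in FHL2 (-0.49, adjusted p = 0.0239). Its calls were lost in 3 fits without 1 library in control (adjusted p of 0.0530 to 0.119) and in 4 in FHL2 (0.0511 to 0.143), and the GC offset gave larger falls (-1.25 and -1.18). Plxna2 fell in FHL2 (-0.60, adjusted p = 0.00601). This call was kept with the GC offset and lost with the GC content and length offset (-0.04, adjusted p = 0.883). In control its change was 0.33 as counted (adjusted p = 0.0920). The GC content and length offset made that a called rise (0.77, adjusted p = 0.00356). The difference between the changes as counted did not pass (-0.93, SE 0.23, adjusted p = 0.351). Plxna3 was called in neither line as counted and lower in both with the GC offset (-1.04 and -0.93), and Plxna4 was at or under 1.41 CPM in every library. A set of 3 antisense genes of Plxna4 is annotated, and whether the counting used the strand is unknown here. Plxnc1, the plexin that binds Sema7a, had 30 counts over all 12 libraries, and Plxnb3 had 15.

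Both neuropilins, the partners through which class 3 semaphorins bind, had fewer counts on day 2, but the sign of Nrp1 turned with the GC offset. Nrp2, which also binds VEGF-C, had 213, 184 and 214 CPM in control on day 0 and 79.6, 81.1 and 60.7 CPM on day 2. In FHL2 it had 210, 226 and 224 CPM and then 95.7, 79.3 and 72.7 CPM. The days are far apart in both lines, and Nrp2 fell in control (log2 fold change -1.46, SE 0.13, edgeR adjusted p = 4.30e-07) and in FHL2 (-1.41, SE 0.13, adjusted p = 5.87e-07), with -1.68 and -1.61 under the GC offset. Nrp1, the receptor of Sema3a, was lower by counts too, 122 ± 6.81 against 81.0 ± 8.43 CPM in control (-0.59, adjusted p = 0.00445) and 102 ± 8.99 against 61.5 ± 15 CPM in FHL2 (-0.73, adjusted p = 0.00104). Its transcript has one of the lowest GC contents of these genes (41.9%), and with the GC offset the sign turned, to 1.03 (adjusted p = 0.000158) and 0.74 (adjusted p = 0.00218). A direction for Nrp1 therefore depends on the correction, while that of Nrp2 (GC content 51.1%) does not.

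**Figure D4:**
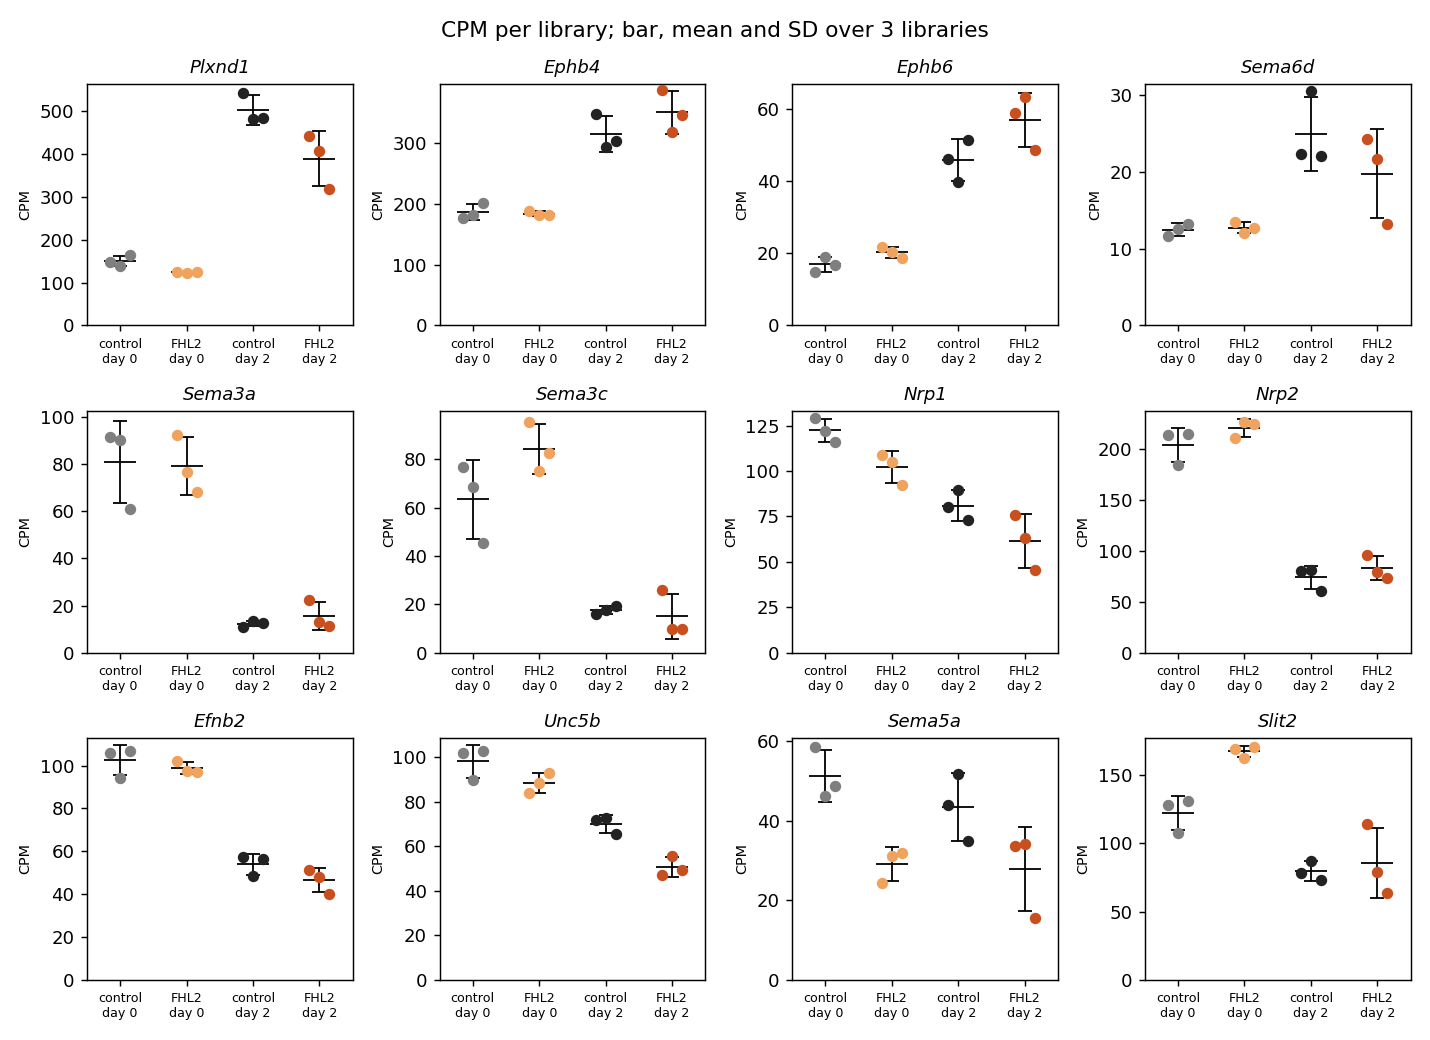
CPM of 12 guidance genes in each library (points) with the mean and SD over the 3 libraries of a group, in control and FHL2 on day 0 and day 2, on axes that start at 0. As counted, Plxnd1, Ephb4 and Ephb6 lie higher on day 2 in both lines and Sema3a, Sema3c, Nrp2 and Efnb2 lower (the rise of Ephb4 was not called with the GC offset), and FHL2 lies below control in Unc5b on day 2 and in Sema5a on both days.

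In the ephrin system 3 of the 4 B-class receptors tested rose as counted while Efnb2 fell, and with the GC offset Ephb6 was the one still called higher in both lines. With the GC content and length offset Ephb2 was called higher in both lines as well. Ephb4, which binds ephrin-B2 almost alone, had 176, 182 and 201 CPM in control on day 0 and 348, 294 and 303 CPM on day 2. The FHL2 libraries had 188, 182 and 182 CPM and then 387, 318 and 346 CPM. Ephb4 rose without overlap by 0.76 in control (SE 0.10, edgeR adjusted p = 1.16e-05) and by 0.93 in FHL2 (SE 0.10, adjusted p = 1.78e-06). With the GC offset the changes were 0.01 (adjusted p = 0.920) and 0.23 (adjusted p = 0.0709), and neither rise remained called. With the GC content and length offset they were 0.17 (adjusted p = 0.141) and 0.41 (adjusted p = 0.00161), so the rise in FHL2 was called.

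Efnb2, the gene of ephrin-B2, had 106, 94.4 and 107 CPM in control on day 0 and 57.5, 48.4 and 56.2 CPM on day 2. Its FHL2 levels were 102, 97.7 and 97.1 CPM and then 51.2, 48.2 and 40.2 CPM. The days do not overlap, and Efnb2 fell in control (log2 fold change -0.92, SE 0.12, edgeR adjusted p = 1.38e-05) and in FHL2 (-1.09, SE 0.12, adjusted p = 3.17e-06). The GC offset left these values almost as they were (-1.04 and -1.20).

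Ephb6, an Eph receptor without kinase activity, had 14.8, 19.1 and 16.9 CPM in control on day 0 and 46.1, 39.8 and 51.5 CPM on day 2. FHL2 cells had it at 21.8, 20.4 and 18.7 CPM and then 59.0, 63.4 and 48.6 CPM. Ephb6 rose by 1.44 in control (SE 0.17, edgeR adjusted p = 5.16e-06) and by 1.49 in FHL2 (SE 0.17, adjusted p = 3.43e-06), and by 0.68 (adjusted p = 0.00368) and 0.79 (adjusted p = 0.00115) with the GC offset. Ephb2, a receptor of several B-class ephrins, had 47.4, 47.8 and 56.7 CPM in control on day 0 and 106, 97.5 and 105 CPM on day 2. In FHL2 it had 47.9, 54.5 and 61.3 CPM and then 94.5, 92.0 and 78.7 CPM. Ephb2 rose by 1.02 in control (SE 0.13, adjusted p = 9.27e-06) and by 0.70 in FHL2 (SE 0.13, adjusted p = 0.000295), and the GC offset kept the call in control (0.39, adjusted p = 0.0178) but not in FHL2 (0.08, adjusted p = 0.633). The GC content and length offset kept both calls of Ephb2 (0.86, adjusted p = 7.74e-05, and 0.70, adjusted p = 0.000453). Ephb3, the remaining B-class receptor tested, had changes of -0.07 and -0.01 that did not pass, and was called lower with the GC offset (-0.78 and -0.70).

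Few A-class Eph receptors were expressed, 3 of 9 passing the filter. Epha4, which binds ephrins of both classes, had 26.2, 22.3 and 22.6 CPM in control on day 0 and 9.64, 8.97 and 0 CPM on day 2. The FHL2 libraries had 23.9, 26 and 23.2 CPM and then 6.45, 7.23 and 4.84 CPM. Every day 2 library was lower, and the change was -1.90 in control (SE 0.67, edgeR adjusted p = 0.0249) and -1.98 in FHL2 (SE 0.67, adjusted p = 0.0207). Control day 2 replicate 3, at 0, stands apart: without the 3 gene-poor day 2 libraries the changes were -1.30 (adjusted p = 5.49e-06) and -2.31 (adjusted p = 1.04e-06), and without control day 0 replicate 1, or FHL2 day 0 replicate 2 or day 2 replicate 3, the call was lost (adjusted p = 0.0624, 0.0523 and 0.0652). Under the GC offset neither passed (-1.17, adjusted p = 0.158, and -1.25, adjusted p = 0.134). Epha2, a receptor of class A ephrins, had 7.91 to 32.5 CPM over the 12 libraries and was called in neither day comparison as counted (0.40 in control and -0.36 in FHL2). With the GC offset its changes were -0.30 (adjusted p = 0.397) and -1.05 (adjusted p = 0.00674), the second a called fall. Epha3 was at or under 1.81 CPM in every library and was called lower in FHL2 (adjusted p = 0.0153), with 0, 0 and 0.0606 CPM on day 2, a call lost with the GC offset (adjusted p = 0.0746) and without the 3 gene-poor day 2 libraries (adjusted p = 0.0727).

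Of the A-class ephrins, Efna5 fell in both lines, from 39.1 ± 2.85 to 21.1 ± 3.65 CPM in control (-0.89, edgeR adjusted p = 0.000720) and from 37.3 ± 1.61 to 18.9 ± 3.47 CPM in FHL2 (-0.98, adjusted p = 0.000329). With the GC offset its changes were 0.11 and -0.07 and did not pass. Efna1 rose in FHL2 (0.50, adjusted p = 0.0162) and had a change of 0.30 in control (adjusted p = 0.129), and Efna4 rose in control (0.78, adjusted p = 0.0416) with 14.4, 17.8 and 38.8 CPM on day 2. The Efna4 call was lost in 7 of the 12 fits without 1 library, and the change was smallest without control day 2 replicate 3 (0.29, adjusted p = 0.262). Efna1 was not called without FHL2 day 0 replicate 2 or day 2 replicate 3 (adjusted p = 0.0888 and 0.0628). Neither was called with the GC offset (Efna1 -0.04 in FHL2, Efna4 0.07 in control). Efnb1 was called in neither line, although without control day 2 replicate 3, which had 58.2 CPM where the others had 27.4 and 28.9, it was lower in control (-0.57, adjusted p = 0.00362). Under the GC offset Efnb1 was lower in both lines (-0.94, adjusted p = 0.00465, and -1.03, adjusted p = 0.00249).

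The 2 Slits that were tested moved apart as counted, Slit2 down and Slit3 up, and neither change passed with the GC offset. Slit2 had 128, 108 and 131 CPM in control on day 0 and 78.1, 87.4 and 73.1 CPM on day 2. Its FHL2 levels were 169, 163 and 171 CPM and then 114, 79.4 and 63.7 CPM. Slit2 fell without overlap in control (log2 fold change -0.62, SE 0.17, edgeR adjusted p = 0.00535) and in FHL2 (-0.97, SE 0.17, adjusted p = 0.000173). Under the GC offset its changes were 0.20 (adjusted p = 0.374) and -0.22 (adjusted p = 0.327). With the GC content and length offset Slit2 was a called rise in control (0.54, adjusted p = 0.00208) and was not called in FHL2 (0.21, adjusted p = 0.181). Slit3 rose from 33.1 ± 5.14 to 64.1 ± 2.02 CPM in control (0.95, adjusted p = 0.000905) and from 29.3 ± 1.38 to 43.9 ± 14.9 CPM in FHL2 (0.58, adjusted p = 0.0222), and with the GC offset the changes were 0.26 and -0.09 and did not pass. With the GC content and length offset the Slit3 rise stayed called in control (0.49, adjusted p = 0.0337) but not in FHL2 (0.18, adjusted p = 0.436). In FHL2 the Slit3 rise rested on FHL2 day 2 replicate 1, with 60.9 CPM where the others had 37.4 and 33.4 (0.29, adjusted p = 0.132, without it), and it was also not called without FHL2 day 0 replicate 1 or 3 (adjusted p = 0.0654 and 0.0699).

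Robo receptors, through which Slits signal, were measured near the floor of detection. Robo1, the most abundant, had 2.13, 1.67 and 1.17 CPM in control on day 0 and 1.27, 1.25 and 0 CPM on day 2. FHL2 cells had it at 2.07, 3.17 and 2.52 CPM and then 0, 3.40 and 1.39 CPM, and the days overlap in both lines. Robo3 had 31 counts over the 3 control libraries of day 0 and 21 over those of FHL2, and none on day 2. Against a floor of 3 counts over the group, which covers counting error only, Robo3 was at least 6.73-fold lower on day 2 in control. In FHL2 it was at least 4.84-fold lower. Robo3 passed the filter on low counts through day 0 alone, so the filter favoured a fall, and its calls (edgeR adjusted p = 0.0139 and 0.0210) carry that limit. The call in FHL2 was lost with DESeq2 (adjusted p = 0.0536) and with the replicate block (edgeR adjusted p = 0.0528). Robo2, too low to be tested, had 28 and 29 counts on day 0 and none on day 2, at least 6.07-fold and 6.68-fold lower against the same floor.

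Netrin 1 and its receptor Unc5b are known as a pair that retains macrophages in fat tissue. Ntn1 had 77.4, 76.6 and 82.0 CPM in control on day 0 and 88.1, 97.4 and 114 CPM on day 2. In FHL2 it had 70.9, 69.3 and 72.0 CPM and then 85.4, 80.6 and 67.3 CPM. Ntn1 rose by 0.34 in control (SE 0.12, edgeR adjusted p = 0.0250) and had a change of 0.14 in FHL2 (SE 0.12, adjusted p = 0.359). The control call was lost without control day 0 replicate 1 or 2 (adjusted p = 0.0809 and 0.0869) and turned to a fall with the GC offset (-0.39, adjusted p = 0.0192). The change in FHL2 became a called fall with that offset too (-0.56, adjusted p = 0.00188).

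Unc5b had 102, 89.6 and 103 CPM in control on day 0 and 71.7, 72.7 and 65.3 CPM on day 2. The FHL2 libraries had 84.0, 88.5 and 93.1 CPM and then 47.2, 55.6 and 49.1 CPM. Unc5b fell without overlap in control (log2 fold change -0.49, SE 0.11, edgeR adjusted p = 0.00159) and in FHL2 (-0.81, SE 0.11, adjusted p = 2.39e-05). The GC offset gave -1.24 and -1.52. Ntn4 was under 1 CPM in every library. Its fall in control (adjusted p = 0.0340) rested on 0.850 ± 0.117 CPM on day 0 and was lost in each of the 6 fits without 1 control library (adjusted p up to 0.102).

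Between the lines, the day 0 libraries differed in few of these genes. With all 12 libraries in the fit, edgeR called none of the 45, beside 0.0485% of all genes tested, and 6 of the 45 had an unadjusted p under 0.05. DESeq2, which called 0.610% of all genes, and limma-voom called none either. The libraries of the lines did not overlap in 15 genes, 3 higher in FHL2 (Slit2, Efnb1 and Sema6a) and 12 lower, where 10.5% and 11.1% of all genes did so. The median log2 fold change was -0.15, beside -0.02 over all genes, and 29 of 45 changes were below 0 (64.4%, beside 53.3% of all genes). That median was -0.05 with the GC content and length offset and -0.09 without FHL2 day 0 replicate 3.

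The genes named next for day 0 were chosen after their values were seen, since they were called when only the 6 day 0 libraries were fitted, which vary less among themselves (biological coefficient of variation 0.12, beside 0.39 for the day 2 libraries). Sema5a, a membrane semaphorin, had 58.6, 46.2 and 48.6 CPM in control and 24.3, 31.2 and 31.9 CPM in FHL2. It was lower in every FHL2 library, with a difference of -0.81 in the fit of all libraries (SE 0.25, edgeR adjusted p = 0.598) and of -0.79 with the day 0 libraries alone (adjusted p = 0.0101). Slit2 had 128, 108 and 131 CPM in control and 169, 163 and 171 CPM in FHL2, higher in every FHL2 library, by 0.46 with all libraries (SE 0.16, adjusted p = 0.835) and by 0.48 with the day 0 libraries alone (adjusted p = 0.0156). Sema7a, a lipid-anchored semaphorin, had 11.7, 8.63 and 10.4 CPM in control and 4.52, 5.08 and 3.47 CPM in FHL2. Its difference was -1.23 with all libraries (SE 0.56, adjusted p = 1.00) and -1.21 with the day 0 libraries alone (adjusted p = 0.0107). That fit called 1.75% of all genes. Without the 3 gene-poor day 2 libraries the same 3 genes were called on day 0, beside 0.845% of all genes, with changes of -0.80, 0.47 and -1.22 for Sema5a, Slit2 and Sema7a.

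On day 2, edgeR called 1 of the 45 genes between the lines, beside 2.07% of all genes (1.35% lower). Unc5b had 71.7, 72.7 and 65.3 CPM in control and 47.2, 55.6 and 49.1 CPM in FHL2. Every FHL2 library was below every control library, and the difference was -0.47 (SE 0.11, adjusted p = 0.0444). This call stood near the threshold. It was lost in 11 of the 12 fits without 1 library (adjusted p of 0.0644 to 0.123), the exception being control day 2 replicate 3 (0.0406), and with the GC offset (-0.43, adjusted p = 0.0524). It was also lost with limma-voom (adjusted p = 0.0595), the replicate block (0.0753), no filter on low counts (0.0579), the day 2 libraries alone (0.421) and the GC content and length offset (-0.28, adjusted p = 0.210). It was made with DESeq2 (adjusted p = 0.00181) and without the 3 gene-poor day 2 libraries (-0.58, adjusted p = 0.0240). On day 0 Unc5b differed by -0.15 (adjusted p = 1.00), with overlap.

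Most of these genes had lower values in FHL2 on day 2, short of the threshold. Of the 45 changes 33 were below 0 (73.3%, beside 48.2% of all genes), and the median was -0.21, beside 0.01. It was -0.11 without control day 2 replicate 1, -0.13 without FHL2 day 2 replicate 3, -0.10 with an offset for GC content and length, and -0.40 without the 3 gene-poor day 2 libraries. The libraries did not overlap in 10 genes, all lower in FHL2 (Epha2, Ephb2, Slit3, Ntn1, Unc5b, Plxna2, Plxnb2, Plxnd1, Sema4g and Sema5a), where 7.41% of all genes were lower and 7.28% higher without overlap. DESeq2 called 7 lower and none higher (Epha2, Plxna2, Plxnb2, Plxnd1, Sema3b, Sema4g and Unc5b), beside 6.91% of all genes (3.86% lower). Without the 3 gene-poor day 2 libraries, where a lone FHL2 library is assumed to vary like the others, 10 were called lower and none higher, beside 10.1% of all genes (6.32% lower). Unc5b, Plxnb2 and Plxnd1 are in all 3 of these lists, which draw on the same day 2 libraries and are not independent of each other.

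Plxnd1 on day 2 had 544, 483 and 484 CPM in control and 443, 408 and 318 CPM in FHL2. Its difference was -0.37 (SE 0.11, edgeR adjusted p = 0.102; DESeq2 adjusted p = 0.0461), and on day 0 it was -0.28 (SE 0.11, adjusted p = 0.966), without overlap on either day. Plxnb2 had 523, 434 and 496 CPM in control and 402, 380 and 311 CPM in FHL2, a difference of -0.41 (SE 0.11, edgeR adjusted p = 0.0772; DESeq2 adjusted p = 0.0222). Sema4g, a ligand of Plxnb2, had 7.95, 11.4 and 14.8 CPM in control and 1.80, 4.18 and 4.42 CPM in FHL2, a difference of -1.71 (SE 0.45, edgeR adjusted p = 0.0665; DESeq2 adjusted p = 0.00343). With the GC content and length offset the differences of Plxnd1, Plxnb2 and Sema4g were -0.13 (edgeR adjusted p = 0.307), -0.22 (0.119) and -1.59 (0.0832). In the day 2 libraries alone their edgeR adjusted p were 0.416, 0.307 and 0.249. These genes were named after their values were seen. None of these differences passed the edgeR test with all libraries, and in all 3 genes every FHL2 library was below every control library. Ephb4, in contrast, had a difference of 0.15 (SE 0.10, adjusted p = 0.425) with overlap.

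**Figure D5:**
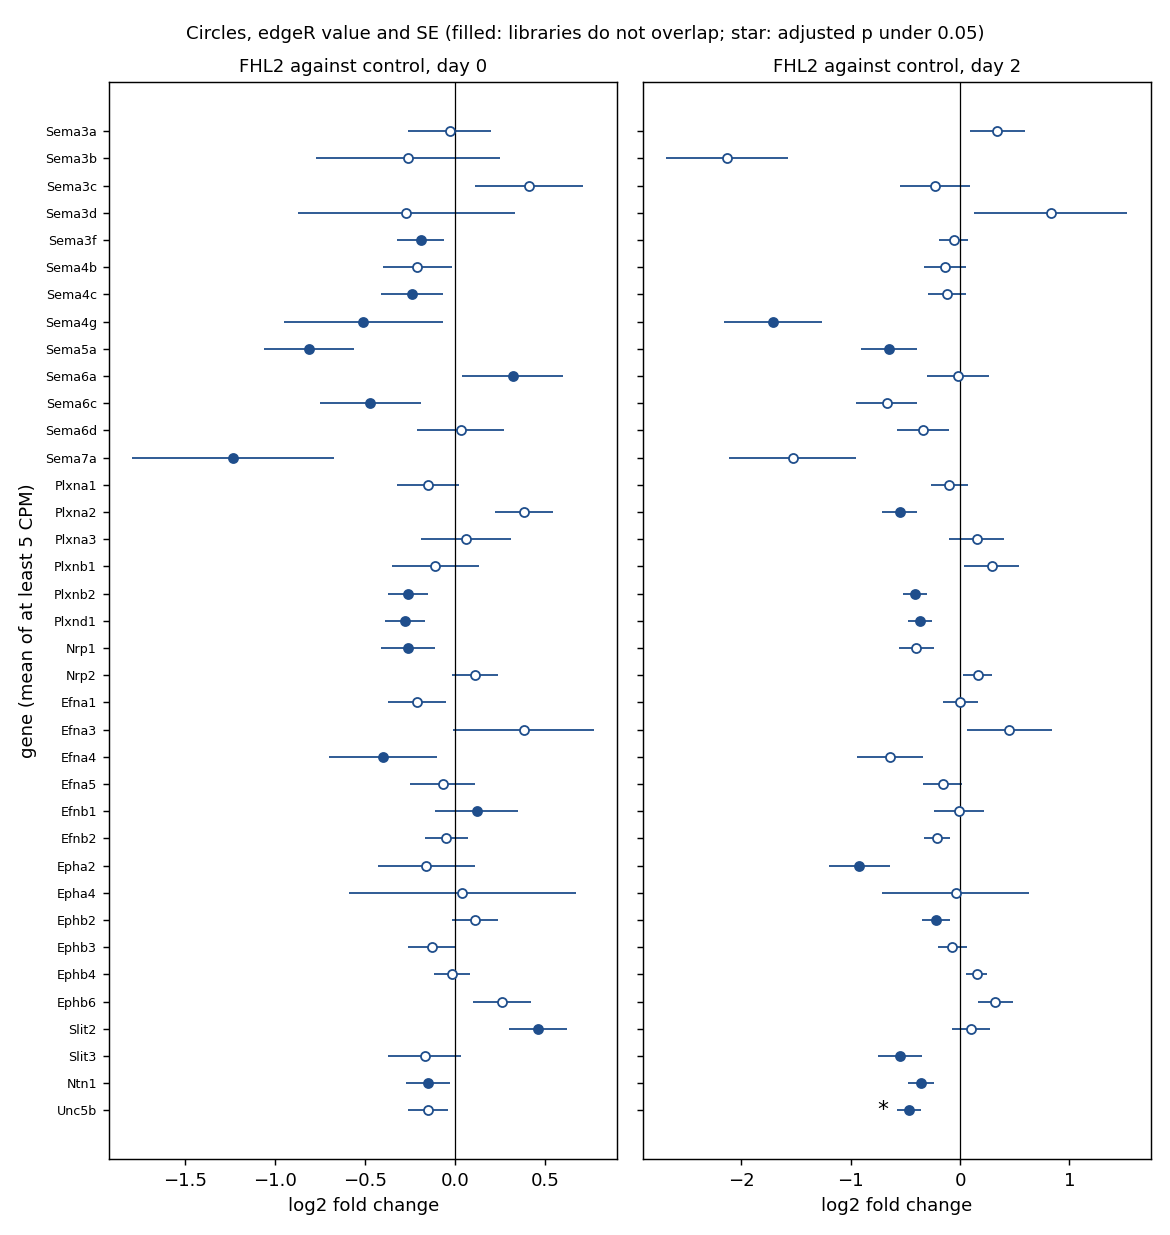
Log2 fold change of FHL2 against control with its SE on day 0 (left) and day 2 (right) for guidance genes averaging 5 CPM or more, filled where the libraries of the lines do not overlap and starred where the adjusted p is under 0.05. Most day 2 values lie left of 0, the only star is Unc5b, and Sema5a lies left of 0 without overlap on both days.

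Some sums of marker lists differed between the lines as well. Pericyte and smooth muscle markers summed to 563 to 661 CPM in control and 685 to 828 CPM in FHL2 on day 0. On day 2 they summed to 108 to 140 CPM and 161 to 238 CPM. Nearly all of each sum was Acta2, so the difference is that of 1 gene and not of the list. Of the 6 genes, only Acta2 and Des had 1 CPM or more in each group. Des had slightly lower means in FHL2 on both days, and Rgs5 and Cspg4 had no count in FHL2 on day 2. Adipocyte markers summed to 333 to 422 CPM in control and 260 to 338 CPM in FHL2 on day 2, ranges that overlap. On day 0 they leaned the other way, with 156 to 177 CPM in control and 177 to 210 CPM in FHL2. Neuronal markers, low in all groups, summed to 7.28 to 11.4 CPM in control and 14.2 to 17.3 CPM in FHL2 on day 2. Their day 0 sums were 19.2 to 23.6 CPM and 17.3 to 18.5 CPM. The part of these marker lists in the differences between the lines was not tested.

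The change between the days was not shown to differ between the lines for any of these genes. No member of the 45 was called by edgeR in the interaction of line and day, beside 0.00693% of all genes (1 gene), and 2 had an unadjusted p under 0.05: Plxna2 (-0.93, SE 0.23, adjusted p = 0.351) and Sema3b (-1.87, SE 0.75, adjusted p = 0.647). DESeq2 and limma-voom called none. Without the 3 gene-poor day 2 libraries, Slit2 was called (-0.87, adjusted p = 0.0288), beside 1.52% of all genes. A p that misses the threshold does not show that the lines responded alike.

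Other genes of these pathways were followed in lists of 21 further ligands and receptors and 49 cytoplasmic effectors. Of the ligands and receptors 13 were tested, with 1 higher (Rgma, a ligand of neogenin) and 6 lower in control and 1 higher and 7 lower in FHL2 on day 2. Rgma rose from 127 ± 7.59 to 212 ± 34.7 CPM in control (0.74, edgeR adjusted p = 0.000602) and had a change of -0.02 with the GC offset, under which 0 of the list were higher and 1 lower in control and 0 and 3 in FHL2. Of the effectors 46 were tested, with 10 higher and 25 lower in control (median -0.52) and 8 higher and 23 lower in FHL2 (median -0.53). Over all genes tested 26.3% were higher and 30.8% lower in control (median -0.14), and 25.8% and 30.2% in FHL2 (median -0.11). Limk1, the kinase that acts on the actin regulator cofilin, rose from 20.3 ± 1.23 to 90.4 ± 9.73 CPM in control (2.15, edgeR adjusted p = 2.82e-07) and from 22.4 ± 2.15 to 77.7 ± 21.0 CPM in FHL2 (1.79, adjusted p = 1.40e-06), with 1.43 and 1.09 under the GC offset. Vav2, an exchange factor downstream of Eph receptors, rose by 1.11 and 1.34 (adjusted p = 0.000242 and 4.62e-05), and with the GC offset the control rise did not pass (0.41, adjusted p = 0.101) and that in FHL2 was 0.67 (adjusted p = 0.0120).

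Among effectors that averaged 5 CPM or more across both days, the largest falls were those of Rasa1, a Ras GTPase-activating protein that binds Eph receptors, and of Rock1 and Rock2, kinases that act on the actin cytoskeleton. Rasa1 fell from 68.6 ± 18.4 to 9.59 ± 2.33 CPM in control (-2.84, edgeR adjusted p = 2.04e-06) and from 50.7 ± 9.24 to 6.21 ± 2.56 CPM in FHL2 (-3.03, adjusted p = 1.31e-06). With the GC offset its changes were -1.18 (adjusted p = 0.00545) and -1.54 (adjusted p = 0.000859). Rock1 fell in control and FHL2 (-2.55 and -2.28), as did Rock2 (-2.62 and -2.11), and with the GC offset Rock1 was not called (adjusted p = 0.452 in control) and Rock2 in control alone (-0.96, adjusted p = 0.0297; FHL2 adjusted p = 0.199). Under the GC offset 6 effectors were higher and 17 lower in control, and 7 and 15 in FHL2. Between the lines on day 2, Farp2, an effector of A-type plexins, was lower in FHL2 (-1.12, adjusted p = 0.0298), as were Flt1, a VEGF receptor (-0.91, adjusted p = 0.0388), and Ntng1, a membrane-anchored netrin relative (-5.08, adjusted p = 0.0200), which were named because they were the ones called. Ntng1 was near the floor on day 2, at 2.54 ± 0.0498 CPM in control and 0.0708 ± 0.123 CPM in FHL2, so the size of its difference is poorly measured. It was under 1 CPM on average in FHL2 on both days and passed the filter on low counts by its control levels, which favoured a lower value in FHL2. On day 0 it had 4.73 ± 1.31 and 0.459 ± 0.114 CPM (-3.35, adjusted p = 0.268).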

How the data were processed

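Polyadenylated RNA was sequenced from 12 libraries, 4 groups of 3, with a stranded kit per the labels' protocols. The values are whole-number read counts per gene as deposited by the authors. Tools listed in the submitters' processing notes are HISAT2 2.2.1, HTSeq 0.11.0 and Trimmomatic 0.39, besides FastQC 0.11.9, limma and R 4.1.0. The notes give the mouse build GRCm39 and no strand setting. Reads shared by paralogs or overlapping genes may have been split or dropped in counting.

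From these counts, genes were filtered with filterByExpr by group (14435 kept), scaled by TMM and fitted with 4 group means in edgeR 4.0.16 (R 4.3.3, quasi-likelihood test, Benjamini-Hochberg adjustment over all genes kept, threshold 0.05), which gave 5 comparisons: day 2 against day 0 in each line, FHL2 against control on each day, and their interaction. The procedure was also run on simulated counts. These had no general difference between the days, no trend with GC content and the same spread on both days, so that run does not test how the fit handles those. CPM are counts over the TMM-scaled library size, per kilobase of exon where said. Exon length and GC content came from an annotation on GRCm38 matched by gene identifier, and the GC offset is a spline with 5 degrees of freedom per library, fitted on genes of at least 5 CPM. Alternatives were RLE and upper-quartile scaling, other filters, DESeq2 1.42.0, limma-voom (limma 3.58.1), fits of the compared groups alone, a replicate block, offsets for GC content and length, and fits without libraries.

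The members, lists and tests were chosen with earlier results of these data known. Values in every library are given for members called between the lines, for the 5 largest called rises and falls in each day comparison, where the compared groups average 5 CPM or more, and for the most abundant member of each family; others may be named to show a family or a pair of ligand and receptor. Of other pathway genes, up to 3 per direction are named. Marker lists of neurons, Schwann cells and glia (13.3 to 28.4 CPM summed per library), macrophages and blood (0.277 to 13.6 CPM) and epithelium (0 to 1.51 CPM) were also read. Promoter sequences are from RefSeq (GRCm38.p6, 55 of 63 genes matched by symbol).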

Additional observations from a re-analysis of the deposited data

How the results depend on the processing

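The total counts of guidance genes called between the days stayed within 1.5 times of their values under every alternative run, at 22 to 33 in control and 22 to 28 in FHL2, and at 21 to 30 and 23 to 31 when each library was left out in turn. The genes behind them did not all stay: with the GC offset the called rises went from 13 to 5 in control and from 9 to 4 in FHL2, and 4 of the 13 and 3 of the 9 were among them. Between the lines on day 0 the count was 1 of 58 tested without a filter on low counts, beside 69 of 24091 over all genes. With only the groups compared it was 3 of 45, beside 246 of 14044. The calls without the 3 gene-poor day 2 libraries are given above, and the count was 0 with each library left out. On day 2 it was 6 without a filter, 2 with a mean of at least 5 CPM, 7 with DESeq2, 10 without the 3 gene-poor day 2 libraries, 0 with limma-voom, with only the groups compared, with the replicate block, with the GC offset, with the GC content and length offset, and with the replicate block with GC offset, and 0 to 2 with each library left out. In the interaction it was 1 without the 3 gene-poor day 2 libraries, and 0 with each library left out.

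The cause of these shifts was not tested, except that the offsets by construction remove a trend with GC content. The turned signs that follow are those of changes called as counted, and other changes turned too, such as Ntn1 in FHL2. The sign turned under the GC offset, the GC and length offset and the replicate block with GC offset, in that order, for Slit2 (0.20, 0.54, 0.20), Efna5 (0.11, 0.11, 0.11), Ntn1 (-0.39, -0.10, -0.39) and Nrp1 (1.03, 0.98, 1.03) in control and for Efna1 (-0.04, -0.24, -0.04) and Nrp1 (0.74, 0.67, 0.74) in FHL2. It turned with the GC offset and the replicate block with GC offset for Plxnb2 (-0.16, -0.16) and Sema6c (-0.02, -0.03) in control and for Slit3 (-0.09, -0.12) and Plxnb2 (-0.28, -0.29) in FHL2. Efna4 turned in control with the GC and length offset (-0.05) and the replicate block with GC offset (-0.00), and Slit2 in FHL2 with the GC and length offset (0.21). Over all results and alternatives other than leaving out a library, 749 values kept their direction and side of the threshold, 84 became weaker, 24 stronger and 29 turned.

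Whether libraries with the same replicate number pair is not settled. Correlations of their deviations were weak, from -0.067 to 0.181. Between control day 2 and FHL2 day 0, 6 of 6 libraries correlated best with their own number. It was 5 of 6 between control day 0 and day 2, and 4 of 6 between control and FHL2 on day 0. Each comparison with FHL2 day 2 had 2 of 6. The replicate block gave 27 calls in control, 25 in FHL2 and 0 between the lines on day 2. Depth limits Robo1, Robo3, Epha3, Plxna4 and Ntn4, which rest on a few CPM or less.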

Other observations

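The guidance genes below the filter on low counts are given as values only. Over all 12 libraries Plxnc1 had 30 counts, of which 18 were in control and 11 in FHL2 on day 0, Sema4d had 27, Sema4a 26, Sema5b 25, Plxnb3 15, Slit1 13 and Epha8 11. Epha10, Epha6 and Ephb1 had 1 count each. Some of these counts fell in 1 group. Epha7 had 15 counts, all in FHL2 on day 0 (13, 2 and 0 in the libraries), at least 4.37-fold higher than in control against a floor of 3 counts over the group. Sema6b had 17 counts in control on day 2 (0, 3 and 14) and none in FHL2 on day 2, at least 6.89-fold higher. In both genes 1 library holds most of the counts, and neither was tested.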
